A study of Rattus norvegicus with 4 samples.

Results

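The neuropeptide precursor genes are 10 genes whose products are cut into secreted peptides: Cck, Npy, Gal, Nts, Tac1, Penk, Adcyap1, Calca, Adm and Edn1. Cck was selected on its high read count in hrPC12, so that its values are given as a description without a test, and the others are peptides known from chromaffin or neural cells. The count files list 9 of the 10 genes among 25810, and Adcyap1 was not found under that name. A row named Pacap was not used, because RefSeq gives this older name to both Adcyap1 and Mzb1. Reads sufficient for a comparison were present for 5 of the 9. RNA was sequenced from 2 clones of PC12, a rat line derived from a pheochromocytoma of the adrenal medulla. Of these, wtPC12 has low levels of REST, a repressor of neuronal genes, while hrPC12 has high levels of it. No treatment was named for either clone. Each was represented by 2 libraries from 1 clone, and nothing states that they came from separate cultures, so the spread between libraries may be technical, and REST cannot be told apart from any other difference between the clones.

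Neuropeptides are made as long precursors that enter the secretory pathway and are cut at pairs of basic residues by prohormone convertases. Carboxypeptidase E then trims the ends, and the enzyme Pam amidates many of the peptides. The products are stored in dense-core granules and released with the catecholamines when a chromaffin cell is stimulated, and they act on G protein-coupled receptors of the same or other cells. Endothelin-1 and adrenomedullin are vasoactive peptides made also by endothelial and many other cells.

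The reads counted on genes ranged from 20975027 to 27246502 per library. A count of 0 allows up to 3 reads, which correspond to between 2.54 and 3.49 normalized counts, and such limits cover counting error only. Normalized counts are reads divided by edgeR's TMM-scaled library size and brought to the mean size. Rest had 43.0 and 132 normalized counts in the wtPC12 libraries and 964 and 915 in the hrPC12 libraries. The log2 FC (hrPC12/wtPC12) of Rest was 3.42 (standard error 0.57, edgeR BH-adjusted p = 0.0115). It passed both thresholds in 9 of 13 alternative settings, and became 2.80 when wtPC12 replicate 1 was left out and 4.44 when replicate 2 was. Of 12 chromaffin markers, 9 were tested and 6 were lower in hrPC12, against 5.46% of all tested genes. Here lower means past a log2 FC of 2 downward at an adjusted p below 0.01. Th, which codes for the enzyme that starts catecholamine synthesis, had 202932 and 132838 normalized counts in wtPC12 and 18729 and 21001 in hrPC12. Chgb, a granule protein, had 687936 and 626776 against 288 and 820. Ddc, the next enzyme of catecholamine synthesis, had 24196 and 20841 against 26281 and 27995 and was not called, nor were Gata3 and Hand2. The summed level of the list was 817637 to 956095 normalized counts in wtPC12 and 47393 to 51443 in hrPC12, and Chgb and Th made up most of it in wtPC12. In bulk RNA, fewer cells that express a gene and less RNA of it per cell cannot be told apart.

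In hrPC12, Nts and Edn1 were higher and Penk was lower, while Adm was abundant in both clones. Pooled reads, scaled by TMM library size here and in later ratios of reads, were 704, 109 and 384 times apart for Nts, Edn1 and Penk. Thus, of the 4 genes with a test, 2 were higher and 1 lower past both thresholds, which ask for a log2 FC beyond 2 either way and for an adjusted p below 0.01. Their median log2 FC was 3.15, against 0.06 over all tested genes. Among all 13726 tested genes, 4.84% were higher and 5.46% lower past the same thresholds. The 4 genes were chosen with earlier results of these libraries known, and with 4 genes nothing particular to them can be read from these shares. The libraries of the clones did not overlap for 3 of the 4 genes, as for 73.5% of all tested genes. The 3 calls were kept in 12 of 13 alternative settings, and none was kept without wtPC12 replicate 2, when no gene of the whole table was called.

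**Figure D1:**
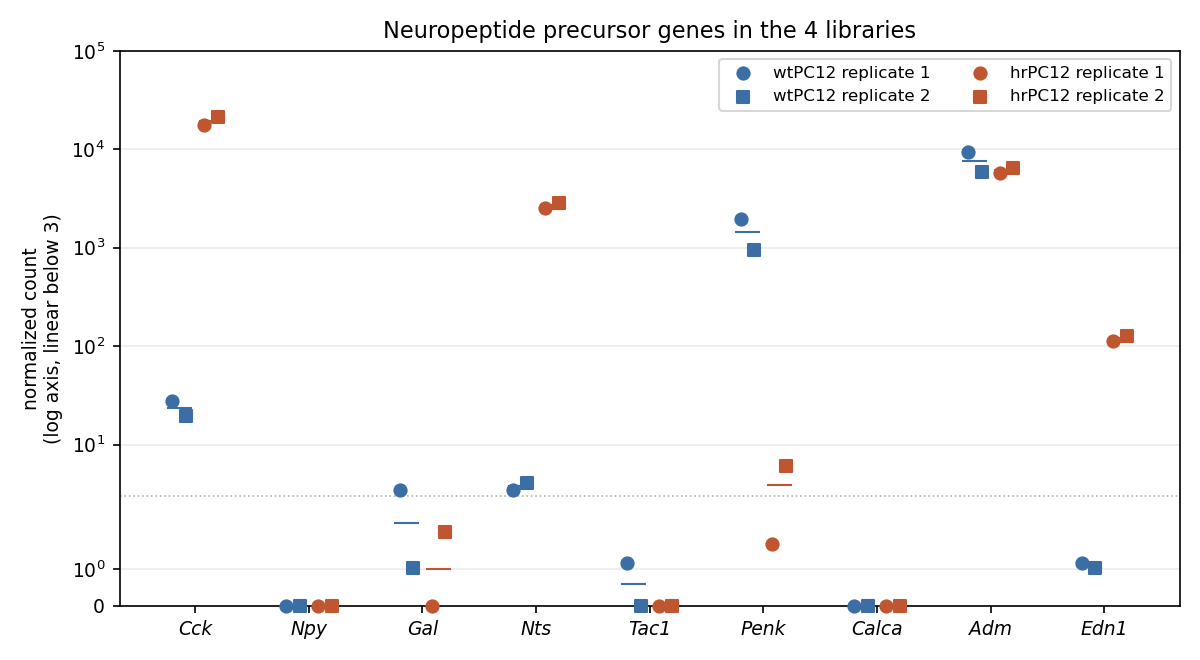
Normalized counts (vertical axis, logarithmic and linear below 3, dotted line) of the 9 precursor genes found in the count files. Circles and squares are the 2 libraries of a clone and short lines their mean. Cck, Nts and Edn1 lie high in hrPC12, Penk lies high in wtPC12, the libraries of Adm overlap, and Npy, Gal, Tac1 and Calca lie at or near 0.

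Cck codes for cholecystokinin, a peptide of gut endocrine cells and of many brain neurons. The wtPC12 libraries had 24 and 19 reads of it, and the hrPC12 libraries had 20620 and 20859. These correspond to 27.9 and 19.6 against 17456 and 21106 normalized counts. Both hrPC12 libraries lay far above both wtPC12 libraries. The gene was picked for its high count in hrPC12, so this gap is not an independent result. The fitted log2 FC was 9.67, with values from 9.43 to 9.91 over 13 alternative settings. The ratio of the pooled reads, scaled by TMM library size, was 814, with a 95% counting interval from 604 to 1125. The wtPC12 reads were above the limit of 3 in each library, so the gene was detected in both clones.

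Nts, the precursor of neurotensin and neuromedin N, was almost absent from wtPC12, with 3 and 4 reads, and had 3002 and 2838 reads in hrPC12. Its mean rose from 3.81 ± 0.446 normalized counts (SD, n = 2) to 2706 ± 234 (SD, n = 2). The log2 FC was 9.42 (standard error 0.31, edgeR BH-adjusted p = 0.000243). The wtPC12 libraries lie at about the limit of 3 reads, and the counting interval of the ratio of 704 therefore runs from 341 to 1751. With a prior count of 2 reads the fitted log2 FC was 8.86. The libraries of a clone differed by 0.24 on the log2 scale in wtPC12 and by 0.18 in hrPC12, far less than the clones.

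Edn1 codes for preproendothelin-1. It had 1 read in each wtPC12 library and 133 and 126 reads in those of hrPC12. In normalized counts the hrPC12 libraries had 113 and 127, and all reads of wtPC12 lay below the limit of 3 in each library. Its log2 FC was 6.62 (standard error 0.52, edgeR BH-adjusted p = 0.00128). Because this value rests on 2 reads in wtPC12, it depends on the prior count, and was 5.30 with a prior count of 2. The scaled ratio of the pooled reads was 109, with a counting interval from 29.9 to 907.

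Penk, the precursor of the enkephalins, went the other way. The enkephalins are opioid peptides that chromaffin cells store and release with catecholamines. It had 1668 and 927 reads in wtPC12, and 2 and 6 reads in hrPC12. The mean fell from 1448 ± 697 normalized counts (SD, n = 2) to 3.88 ± 3.10 (SD, n = 2), and the fitted log2 FC was −8.55 (standard error 0.70, edgeR BH-adjusted p = 0.00142). The wtPC12 libraries were 1.02 apart on the log2 scale and those of hrPC12 were 1.84 apart, the latter on few reads. Over the 13 alternative settings the log2 FC was between −9.68 and −7.87. The scaled ratio of wtPC12 to hrPC12 reads was 384, with a counting interval from 195 to 891.

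Adm, the precursor of adrenomedullin, had 8130 and 5660 reads in wtPC12 and 6838 and 6350 in hrPC12. The normalized counts of 9457 and 5830 in wtPC12 enclosed those of hrPC12 replicate 2, 6425, and hrPC12 replicate 1 had 5789. Thus the libraries of the clones overlapped. The log2 FC was −0.32 (standard error 0.27, edgeR BH-adjusted p = 0.388). It became 0.04 when wtPC12 replicate 1 was left out and −0.63 when replicate 2 was, so the difference between the wtPC12 libraries decides its size and sign.

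The other 4 genes of the list had at most 3 reads in any library and were not tested. Npy, which codes for neuropeptide Y, and Calca, whose transcripts code for calcitonin or the calcitonin gene-related peptide, had 0 reads in all 4 libraries, which allows at most 0.143 CPM (reads scaled to library size). Gal, the precursor of galanin, had 3 and 1 reads in wtPC12 and 0 and 2 in hrPC12. Tac1, the precursor of substance P and neurokinin A, had 1 read in wtPC12 replicate 1 and 0 in the other libraries. A difference between the clones was not detectable at this depth for these genes. Calca shares sequence with its paralog Calcb, which had 2 and 0 reads in wtPC12 and 0 and 3 in hrPC12, and reads that fit both could have been left out of the counts.

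**Figure D2:**
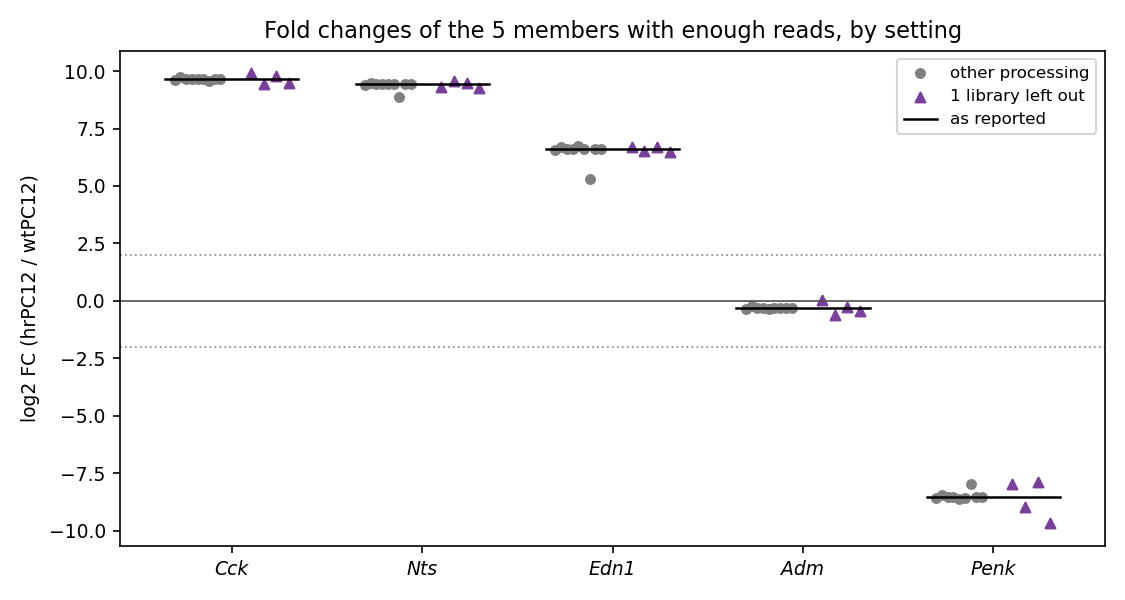
Fitted log2 FC (vertical axis, hrPC12/wtPC12) of the 5 genes with enough reads. The line is the reported value, grey points are other ways of processing, purple triangles leave out 1 library each, and dotted lines mark 2 in either direction. Adm lies within the dotted lines and the other genes outside them in all settings, with Edn1 smallest in size at 5.30.

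Of the members, 8 were found by symbol in the RefSeq table of promoters of the rat assembly GRCr8, and Cck and Penk were missing from it. For Nts and Edn1, the genes with a test that were higher in hrPC12, the bases from −230 to −81 before the annotated start are shown. They lie at chr7:39460969-39461118 and chr17:22666768-22666917 of GRCr8, both on the minus strand, and the build differs from that of the counts. The letters searched in the 250 bases before each start were TGACGTCA (a cyclic AMP response element), TGACTCA (the AP-1 site), TATAAA (the TATA box), and TCAGCACC and GGACAGC from the left and right parts of the REST site, on both strands. Matches are in capitals.

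Nts: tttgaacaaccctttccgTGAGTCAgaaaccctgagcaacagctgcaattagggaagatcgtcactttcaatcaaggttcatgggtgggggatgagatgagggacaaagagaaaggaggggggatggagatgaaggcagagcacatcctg

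Edn1: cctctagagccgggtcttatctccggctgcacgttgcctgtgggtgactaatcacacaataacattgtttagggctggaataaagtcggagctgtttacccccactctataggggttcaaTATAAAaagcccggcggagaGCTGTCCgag

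The Nts promoter held the AP-1 letters on the opposite strand from −212 to −206, as did 4.05% of the 33469 promoters on either strand. That of Edn1 held the letters TATAAA from −110 to −105 (12.9% of all promoters). It also held the letters of the right part of the REST site on the opposite strand from −90 to −84 (5.30% of all promoters). Whether these letters act in either promoter was not tested. The promoters of Gal and Adcyap1 held TATAAA. Those of Npy, Tac1, Calca and Adm held none of these letters in the window. The cyclic AMP element, found in 1.59% of all promoters, and the left part of the REST site, found in 1.25%, were in none of the 8 windows.

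The receptors of these peptides differed between the clones for PACAP and endothelin. Of 28 receptor genes listed, 22 were in the count files and 8 were tested, of which 1 was lower and 1 higher past both thresholds. Over all tested genes the shares were 5.46% lower and 4.84% higher, and with 8 genes nothing particular to the receptors can be read from them. The median log2 FC of the 8 was −1.04, against 0.06 over all tested genes. Ednra, the endothelin receptor of smooth muscle and other mesenchymal cells, had 0 and 3 reads in wtPC12 and 171 and 153 in hrPC12. Its log2 FC of 6.42 (standard error 0.79, edgeR BH-adjusted p = 0.00485) ranged from 5.39 to 10.24 over the alternatives, the highest without wtPC12 replicate 2, which held its only wtPC12 reads. Against a log2 FC of 2 (glmTreat) the adjusted p was 0.0149. The ratio was 91.1, with a counting interval from 30.9 to 444. Thus Edn1 and Ednra were both read at 113 to 155 normalized counts in the hrPC12 libraries and at no more than 3 reads in each library of wtPC12, while Ednrb had 1 read in all.

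Adcyap1r1, the receptor of the Adcyap1 product PACAP, had 1409 and 3082 reads in wtPC12 and 66 in each hrPC12 library. It fell from 2407 ± 1086 normalized counts (SD, n = 2) to 61.3 ± 7.71 (SD, n = 2), with a log2 FC of −5.29 (standard error 0.43, edgeR BH-adjusted p = 0.00141). Its own ligand could not be followed here.

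Other receptors of these peptides differed widely in their reads. Galr2, a galanin receptor, had 159 and 217 reads in wtPC12 and 256 and 115 in hrPC12, which overlap. The receptors of Cck, and the genes Galr2, Ednrb, Tpst1, Pcsk1 and Calcb were chosen after their values were seen. For Cck, the receptor gene Cckar had 0 reads in wtPC12 and 1 and 2 in hrPC12, and Cckbr had 2 and 6 in wtPC12 and 0 in hrPC12. For Nts, the receptor Ntsr1 was at 0 in all libraries. Sort1, or sortilin, a sorting receptor that also binds neurotensin, was abundant, with 2543 and 4153 normalized counts in wtPC12 and 2552 and 2535 in hrPC12. The fitted log2 FC was −0.40 (standard error 0.27, edgeR BH-adjusted p = 0.296), and the wtPC12 libraries enclosed 1 of the hrPC12 libraries. The delta opioid receptor Oprd1, on which enkephalins act, had 12 and 25 reads in wtPC12 and 7 and 6 in hrPC12 (log2 FC −1.71, standard error 0.56, edgeR BH-adjusted p = 0.0713).

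The Adm receptor needs Calcrl together with Ramp2 or Ramp3. Calcrl, named after its values were seen, had 0 reads in both wtPC12 libraries and 8 and 4 in hrPC12. Its hrPC12 mean was 1.64 times the limit of 3 reads in wtPC12, with the counting error of the hrPC12 reads left out. Ramp2 had 1805 and 1216 normalized counts in wtPC12 and 588 and 693 in hrPC12. The fitted log2 FC was −1.24 (standard error 0.27, edgeR BH-adjusted p = 0.0259), without overlap of the clones and not past the thresholds.

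**Figure D3:**
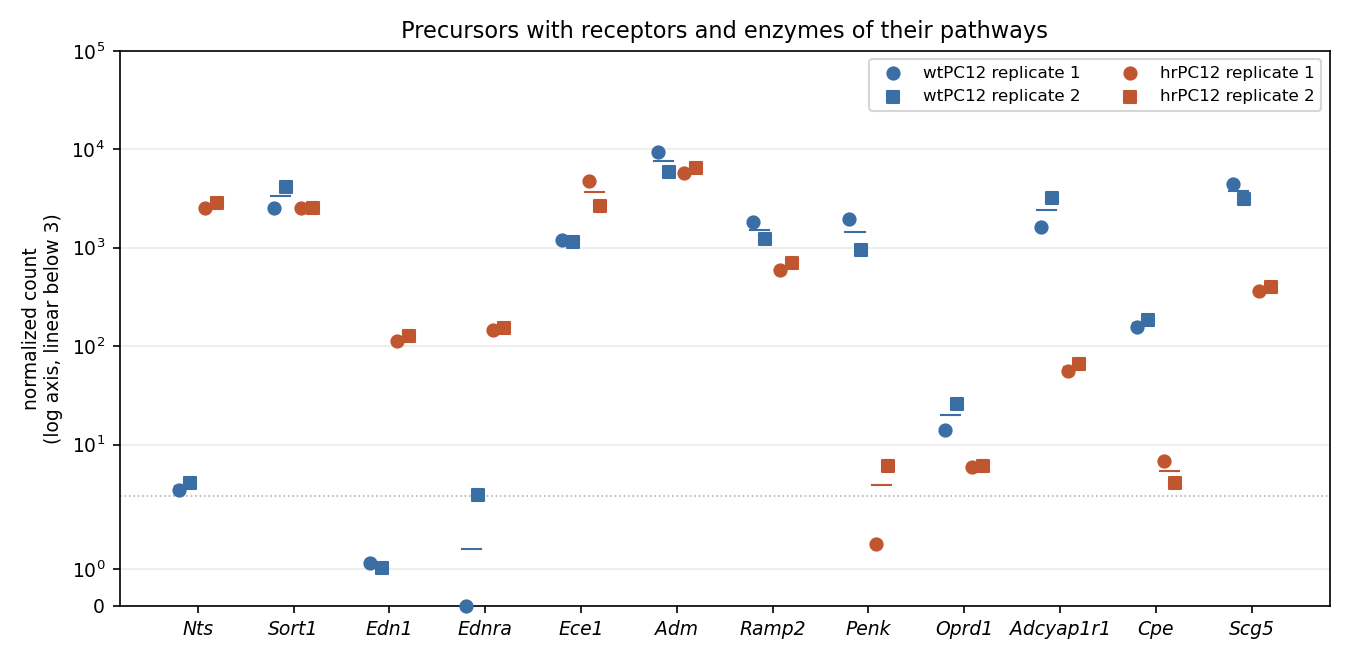
Normalized counts (vertical axis, logarithmic and linear below 3, dotted line) of 4 precursors beside receptors and enzymes of their pathways. Circles and squares are the 2 libraries of a clone and short lines their mean. Edn1 and Ednra lie high in hrPC12, Penk, Adcyap1r1, Cpe and Scg5 lie high in wtPC12, and Sort1 and Adm overlap.

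Of the enzymes and helper proteins that turn precursors into peptides, 16 were listed, 14 found and 11 tested. In hrPC12, 3 were lower and 0 higher past both thresholds by edgeR, against 5.46% and 4.84% of all tested genes. Of the 11, 9 had an unadjusted p below 0.05, as did 46.3% of all tested genes. The median log2 FC of the 11 was 0.77, against 0.06 over all tested genes, while the 3 called genes were lower. The list thus did not move one way. Cpe, carboxypeptidase E, fell from 172 ± 20.0 normalized counts (SD, n = 2) to 5.41 ± 1.93 (SD, n = 2), and its fitted log2 FC was −4.94 (standard error 0.45, edgeR BH-adjusted p = 0.00188). Scg5, the chaperone of the convertase PC2, fell from 3770 ± 920 to 385 ± 24.3 (SD, n = 2 each), with a log2 FC of −3.29 (standard error 0.25, edgeR BH-adjusted p = 0.00119).

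Pcsk1n, which codes for proSAAS, an inhibitor of the convertase PC1, had a log2 FC of −2.08 (standard error 0.25, edgeR BH-adjusted p = 0.00443). It lay within 2 or missed the adjusted p threshold in 5 of 13 alternatives. The convertase gene Pcsk1 itself was at 0 in all libraries. Pcsk2, named after its values were seen, had 0 reads in wtPC12 and 24 and 13 in hrPC12. Its hrPC12 mean was 5.09 times the limit of 3 reads in wtPC12. Furin, the convertase of the constitutive pathway, had 10773 and 11274 normalized counts in wtPC12 and 4511 and 4752 in hrPC12 (log2 FC −1.25, standard error 0.16, edgeR BH-adjusted p = 0.00560), and did not reach a log2 FC of 2.

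Ece1, Pam and Tpst1, which act on Edn1, Cck or Adm products, had higher values in hrPC12 without passing both thresholds. Ece1 releases endothelin-1 from its precursor and had 1212 and 1151 normalized counts in wtPC12 and 4792 and 2648 in hrPC12. The fitted log2 FC was 1.66 (standard error 0.32, edgeR BH-adjusted p = 0.0179), and 1.16 without hrPC12 replicate 1. Pam, which amidates cholecystokinin, adrenomedullin and other peptides, had 2853 and 2812 against 7804 and 4418, a log2 FC of 1.11 (standard error 0.30, edgeR BH-adjusted p = 0.0446). Tpst1, a tyrosylprotein sulfotransferase of the kind that sulfates cholecystokinin, had 252 and 272 against 1086 and 579, a log2 FC of 1.67 (standard error 0.37, edgeR BH-adjusted p = 0.0259).

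In Pam, Tpst1, Tpst2, Ece2, Cpd and Galr2, hrPC12 replicate 1 stood above replicate 2 together with the genes beside them. The median log2 ratio of replicate 1 to replicate 2 over 7 consecutive genes was 0.60 to 0.88 there, past 0.4. These 7 include the gene itself, and for Tpst2 the median was its own ratio. Of the other precursors, listed below, Pomc, Adm2 and Rln3 also lay in such stretches, with medians of 0.90, 0.83 and 0.76. The part of these stretches in the fold changes was not tested. The members with a fitted value do not lie in such stretches, since the same median was between −0.13 and −0.02 around Cck, Nts, Penk, Adm and Edn1. Among enzymes that break peptides down, 7 were listed, 5 tested and 0 called by edgeR, with an unadjusted p under 0.05 for 4, against the 46.3% of all tested genes. Tpp2, a peptidase known to inactivate cholecystokinin, had a log2 FC of 0.79 (standard error 0.17, edgeR BH-adjusted p = 0.0230). The fitted values of the other abundant peptidases went both ways, with 0.80 for Ide, 0.04 for Nln and −0.75 for Thop1 (edgeR BH-adjusted p = 0.0463, 0.858 and 0.0286). Mme, or neprilysin, which cleaves enkephalins, was named after its values were seen, and had 0 reads in wtPC12 and 37 and 17 in hrPC12. Its hrPC12 mean was 7.37 times the limit of 3 reads in wtPC12.

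**Figure D4:**
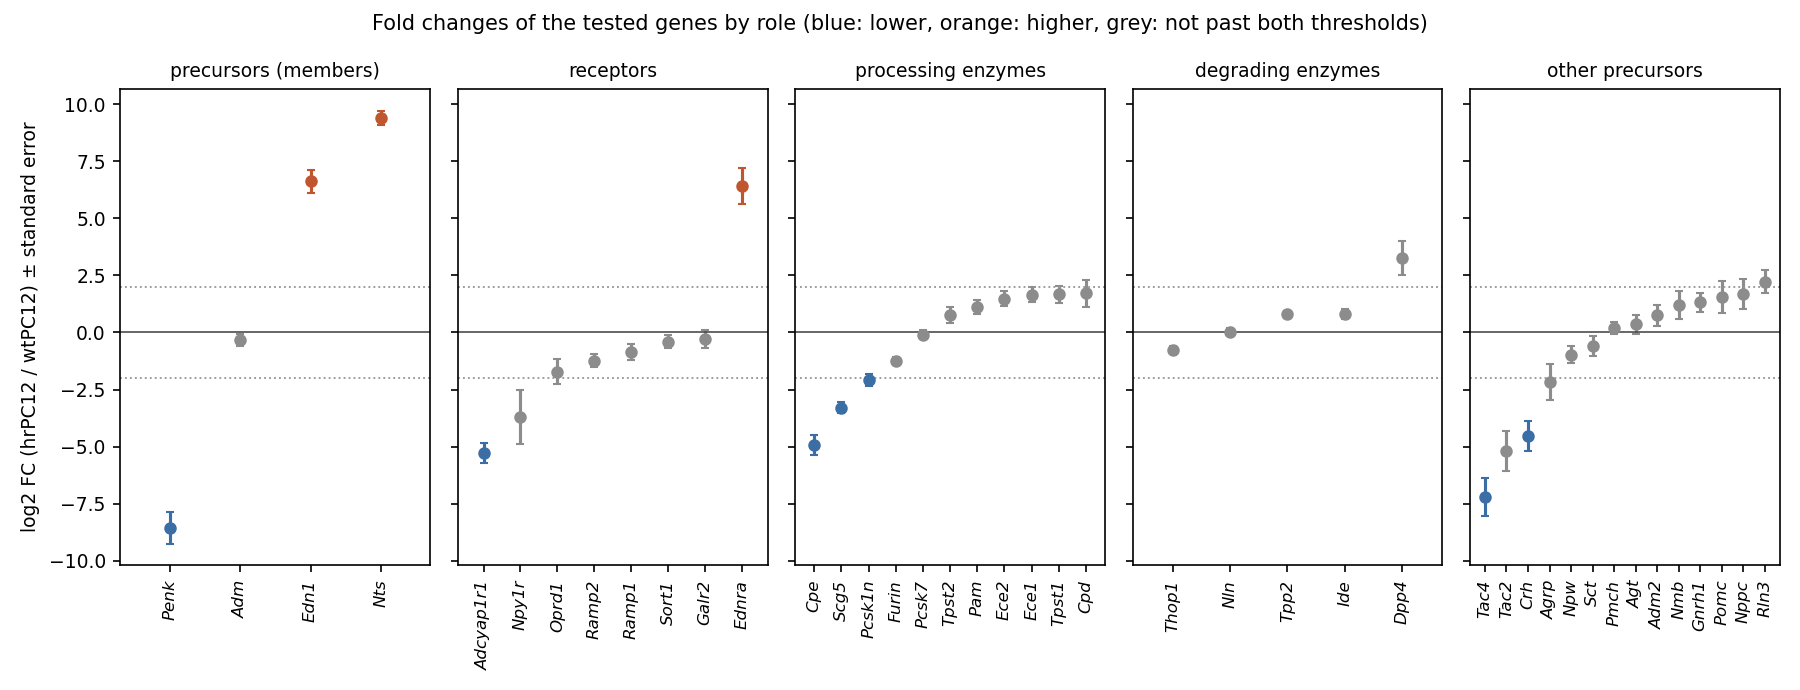
Fitted log2 FC (vertical axis, hrPC12/wtPC12, bars are standard errors) of every tested gene of the lists, by role, without Cck. Blue and orange points are lower and higher past both thresholds, grey points are not, and dotted lines mark 2 in either direction. Nts, Edn1 and Ednra are the orange points, and Penk, Adcyap1r1, Cpe, Scg5, Pcsk1n, Crh and Tac4 the blue points.

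Most other precursors of neuropeptides and peptide hormones had too few reads in 1 or both clones for a comparison. Of 54 listed, 45 were in the count files, 15 of these had no read in any library, and 14 were tested. Past both thresholds 2 were lower and 0 higher by edgeR, against 5.46% and 4.84% of all tested genes. An unadjusted p under 0.05 was found for 6, a share near the 46.3% of all tested genes. The median log2 FC of the 14 was 0.28. Crh, the precursor of corticotropin-releasing hormone, had 468 and 179 reads in wtPC12 and 19 and 15 in hrPC12. Its fitted log2 FC was −4.53 (standard error 0.66, edgeR BH-adjusted p = 0.00794). It was −3.58 without wtPC12 replicate 1, and against a log2 FC of 2 (glmTreat) the adjusted p was 0.0372. Tac4, which codes for hemokinin-1, a relative of substance P, had 89 and 69 reads in wtPC12 and 0 and 1 in hrPC12. Its ratio was 187, with a counting interval from 33.1 to 7443, and its log2 FC −7.21 (standard error 0.82, edgeR BH-adjusted p = 0.00369). The latter was −9.47 without hrPC12 replicate 2, which held its only hrPC12 read, and −5.17 with a prior count of 2, and the adjusted p with glmTreat was 0.0104. Thus past both thresholds Penk, Crh and Tac4 were lower in hrPC12, and Nts and Edn1 were higher. Tac2 and Rln3, named after their values were seen, missed the adjusted p threshold. Tac2 had 21 and 18 reads in wtPC12 and 1 and 0 in hrPC12 (log2 FC −5.21, standard error 0.87, edgeR BH-adjusted p = 0.0118). It passed both thresholds in 7 of 13 alternatives. Rln3 went the other way, with a log2 FC of 2.23 (standard error 0.49, edgeR BH-adjusted p = 0.0260). Sst, the precursor of somatostatin, was named after its values were seen. It had 0 reads in wtPC12 and 20 and 19 in hrPC12, with an hrPC12 mean 5.49 times the limit of 3 reads in wtPC12.

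Markers of endothelial cells were followed beside Edn1 and Ednra, which vessel cells are known to express. Of 8 markers, 6 were in the count files and 3 tested. Vwf was higher, with 66.3 and 81.4 normalized counts in wtPC12 and 564 and 560 in hrPC12 (log2 FC 2.92, standard error 0.28, edgeR BH-adjusted p = 0.00230). Tek had 15 and 26 reads in wtPC12 and 68 and 52 in hrPC12 (log2 FC 1.31, edgeR BH-adjusted p = 0.0665), and Tie1 had 0 in wtPC12 and 8 and 2 in hrPC12. Emcn had 0 reads in all libraries, Pecam1 at most 2 and Cdh5 6 to 8. The summed level of all 6, most of it Vwf, was 95.4 to 115 normalized counts in wtPC12 and 621 to 634 in hrPC12. Of 8 leukocyte markers 2 were tested and 0 called by edgeR, with an unadjusted p under 0.05 for 1 (46.3% of all tested genes), and their summed level was 37.1 to 44.2 normalized counts in wtPC12 and 87.2 to 99.2 in hrPC12. The part of such cells in these results was not tested.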

How the data were processed

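Per the labels, the authors aligned reads to the rat build rn4 with TopHat2 2.0.4, counted them with HTSeq 0.5.3 and deposited raw counts per gene for each of the 4 libraries. Annotation release and strand setting are not given in the sources used here. A further deposited table with the authors' DESeq 1.9.12 means, fold changes and p-values was not used. Rows for reads outside genes (no feature, ambiguous, not unique) were left out, which leaves 37.9% to 41.3% of reads on genes. In R 4.3.3, genes read in both clones whose normalized counts averaged 5 or more were compared with edgeR 4.0.16 (TMM, glmQLFit with the legacy option, glmQLFTest). Benjamini-Hochberg (BH) adjustment ran over all 13726 tested genes. The code was tested on simulated data. Pooled-read ratios are scaled by TMM library size and carry exact binomial intervals. The members and lists were chosen with earlier results of these data known. Alternatives were RLE factors, library totals, other filters, DESeq2 1.42.0, the legacy option off, a prior count of 2, an adjusted p under 0.05, glmTreat, and each library left out. Named genes are the members, Rest, called genes of the receptor, enzyme and precursor lists (up to 6 a list and direction), and receptors of called members. List genes at or above 1000 normalized counts in a clone could be named too, and not all were. Others, markers included, were chosen after their values were seen. Levels were not compared between genes, as transcript lengths were not used here. Gene order came from RefSeq symbols on GRCr8 (65.2% of tested genes placed). With 2 libraries a clone, a permutation test of 1 gene cannot give a p under 0.333.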

Additional observations from a re-analysis of the deposited data

How the results depend on the processing

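For Nts, Edn1 and Penk the direction was kept in all 13 alternatives and the call in 12. The exception was wtPC12 replicate 2 left out, where BH-adjusted p values from edgeR were 0.0130, 0.0196 and 0.0165, and where 0 genes of the whole table were called although 6942 had an unadjusted p under 0.05. In fits without a library the remaining library of a clone is assumed to vary like the other clone. With each library left out, members called ranged from 0 to 1 lower and 0 to 2 higher, receptors from 0 to 2 lower and 0 to 1 higher, processing enzymes from 0 to 3 lower and 0 to 1 higher, and other precursors lower from 0 to 3. All tested genes called ranged from 0 to 920 lower and 0 to 957 higher. Over all tested genes, 749 lower and 665 higher became 353 and 321 with glmTreat, under which 0 receptors were higher and 0 other precursors lower. Genes higher numbered 1127 with every gene tested, where 1 processing enzyme, 1 degrading enzyme and 1 other precursor were higher, and 1088 at an adjusted p under 0.05, where 1 degrading enzyme and 1 other precursor were. With filterByExpr 1 other precursor was higher. No paired analysis was possible because the labels give the clones no shared replicate numbers, and replicates 1 and 2 are only names in accession order. Levels per transcript length and their alternative were not run. Depth limits Npy, Gal, Tac1 and Calca, which had at most 3 reads in any library.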
